A study of Mus musculus with 12 samples.

Results

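The Hoxd genes are Hoxd13, Hoxd12, Hoxd11, Hoxd10, Hoxd9, Hoxd8, Hoxd4, Hoxd3 and Hoxd1, which lie side by side on chromosome 2 and were taken by name, 9 of the 21887 protein-coding genes of the RefSeq table of GRCm38.p6 (the coordinates of mm10). Their spans run from 74668225 to 74765142, and the window studied adds 20 kb on each side, from 74648225 to 74785142 (136918 bp). All 9 are transcribed in the same direction, from Hoxd13 at the low end to Hoxd1 at the high end. Hoxd4 lies inside the RefSeq span of Hoxd3, and the spans of Hoxd10 and Hoxd11 overlap, so these pairs share bases and are not independent.

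The data are 8 peak lists of chromatin immunoprecipitation with sequencing, 4 for H3K27me3 and 4 for H3K4me3, from sorted Lin-cKit+ cells of the bone marrow of C57BL/6 mice, a fraction rich in blood stem and progenitor cells. The WT group held mice WT_407 and WT_409, littermates labelled Ints11_WT, and the KO group held mice KO_399 and KO_401, labelled Ints11_KO, which carried Mx1Cre and floxed Ints11. Whether the WT littermates carried Mx1Cre is not stated. Cells were sorted 4 days after poly(I:C), an inducer of interferon that switches on Mx1Cre. Mx1Cre acts in any cell that answers interferon, the share of cells that lost Ints11 was not measured here, and the ages of the mice are not given in the sources used here. The numbers in the labels are read as mice, 2 per genotype, so the mouse is the unit of each test. With 2 against 2 there are 6 labelings, and the smallest p of an exact permutation test is 0.333. That p is reached whenever the groups do not overlap, however far apart they lie.

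Hox genes encode homeodomain transcription factors that give cells their position along the body axis and the limbs, and their order on the chromosome follows the order in which they are used. Hoxd13 to Hoxd9 belong to the posterior classes that pattern the limbs, digits and lower trunk, whereas Hoxd1, Hoxd3 and Hoxd4 act farther forward. Where a Hox cluster is silent, Polycomb repressive complex 2 writes H3K27me3 over it as a long block. H3K4me3 marks active or poised promoters, and a promoter that carries both marks is called bivalent. Ints11 is the catalytic subunit of Integrator, which cleaves nascent RNA.

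The promoters below show 3 patterns of listed peaks in the cluster, the last of them seen in KO_399 alone. Each promoter is the 250 bases before the start site on the plus strand, read 5′ to 3′ from RefSeq (GRCm38.p6), with every CG dinucleotide in capitals. Hoxd13, the gene of the digits, at chr2:74667975-74668224, was the member with H3K4me3 at its start site in all 4 libraries. Hoxd10, at chr2:74691641-74691890, lay next to the summit of the longest H3K27me3 peak of the cluster in both WT mice. Hoxd4, at chr2:74721728-74721977, was free of listed H3K27me3 in KO_399.
Hoxd13: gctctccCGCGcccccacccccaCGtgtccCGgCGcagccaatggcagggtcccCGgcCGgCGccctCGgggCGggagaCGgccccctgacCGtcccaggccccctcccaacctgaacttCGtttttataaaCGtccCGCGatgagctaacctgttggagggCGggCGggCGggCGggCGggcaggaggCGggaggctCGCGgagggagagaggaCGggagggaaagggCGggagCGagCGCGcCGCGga
Hoxd10: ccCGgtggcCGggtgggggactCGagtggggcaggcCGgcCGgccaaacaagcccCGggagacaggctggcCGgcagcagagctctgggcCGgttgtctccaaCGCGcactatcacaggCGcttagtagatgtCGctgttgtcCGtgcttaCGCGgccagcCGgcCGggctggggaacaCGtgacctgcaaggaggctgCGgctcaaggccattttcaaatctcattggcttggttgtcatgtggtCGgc
Hoxd4: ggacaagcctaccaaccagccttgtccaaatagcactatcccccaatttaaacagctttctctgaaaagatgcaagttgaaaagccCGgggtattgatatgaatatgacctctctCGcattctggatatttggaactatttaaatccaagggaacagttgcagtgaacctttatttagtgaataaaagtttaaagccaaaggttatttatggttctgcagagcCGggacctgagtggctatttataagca

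These 3 promoters hold 31, 20 and 3 CG dinucleotides. CG reads the same on both strands. Of 32851 RefSeq promoters cut to the same 250 bases, 92.1% hold at least 1 CG, with a median of 6, and the Hoxd13 promoter has more CG than 94.8% of them. All 9 members matched this table, Hoxd11 with 2 start sites. The first Hoxd11 start site, with 2 CG, had H3K27me3 over all 250 bases in every library. Only Hoxd3 (172 bases) and Hoxd4 (0 bases) fell short of 250, both in KO_399 alone. With nearly all values at this ceiling, no order of the members by CG number can be read.

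Coverage rests on lists of unequal length: those of H3K27me3 held 11930 and 9838 peaks in WT against 6542 and 7653 in KO, with a genome-wide background of 3.09 to 3.67 reads per position. KO_399 stood apart, with H3K27me3 over 45.9% of the mean WT length of the genome, against 70.1% for KO_401, and values without it stand beside the differences it moves most. As a check of the cells, H3K4me3 lay within 1 kb of a start site at all 8 progenitor markers that have a start site in the table, Kit among them, in every library. It lay at 1 to 3 of 3 B lymphoid, 0 to 1 of 4 T lymphoid (Cd3e, Cd3g and Cd8a at 0 throughout), 2 of 3 erythroid and 4 of 4 mature myeloid markers. In a sorted population, fewer cells with a mark and less of it per cell cannot be told apart.

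H3K27me3 lay over the Hoxd cluster in every mouse, as a nearly unbroken block in WT and as a block with longer gaps in KO. Of the window, WT_407 had 113426 bp (82.8%) under the mark and WT_409 had 117364 bp (85.7%), whereas KO_399 had 91732 bp (67.0%) and KO_401 had 108675 bp (79.4%). Both KO values lay below both WT values, and KO_401 was closer to the WT mice than to KO_399. The WT mean was 115395 ± 2785 bp and the KO mean 100204 ± 11981 bp (± SD over 2 mice), so KO kept 86.8% of the WT length. The two-sided exact permutation test gave the smallest possible p, 0.333 (0.400 after Benjamini-Hochberg adjustment over 6 tests). KO minus WT was -15192 bp, and it was -6720 bp without KO_399 and -23663 bp without KO_401.

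**Figure D1:**
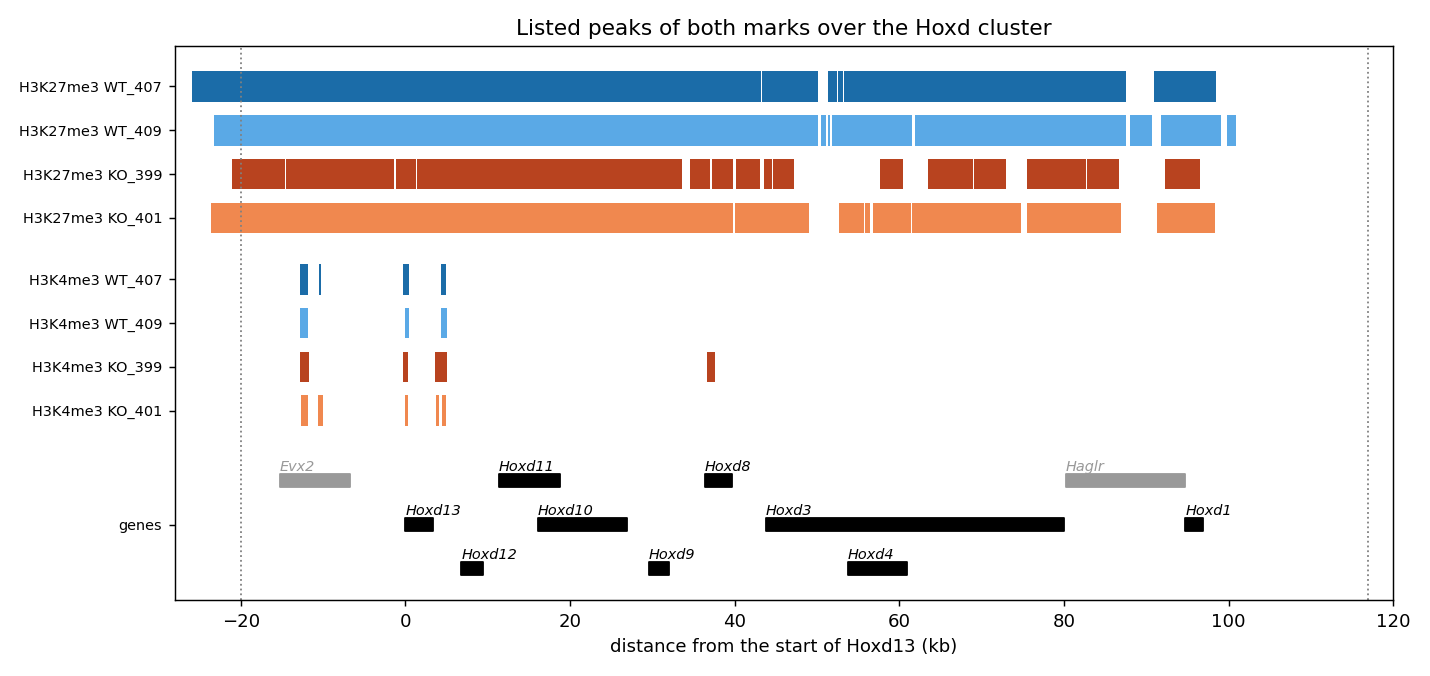
Listed peaks that touch the Hoxd window, by distance from the start of Hoxd13 (kb); each row is 1 mark in 1 mouse, bars are peaks, black bars are the members, grey bars are Evx2 and the noncoding Haglr, and dotted lines mark the window. The H3K27me3 rows of KO_399 and KO_401 show their longest gaps near Hoxd4 and inside Haglr, and H3K4me3 is limited to the Hoxd13 side apart from 1 peak at Hoxd8 in KO_399.

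The long WT peak ended differently in each KO list. In WT_407 it ran from 74642287 to 74711445 (69159 bp), from beyond Evx2 to just short of Hoxd3, and in WT_409 from 74645018 to 74718296 (73279 bp), into Hoxd3. In KO_401 it began at 74644600, close to its start in WT_409, but ended at 74708013, just past Hoxd8 (63414 bp). In KO_399 it was 32172 bp wide, from 74669653 inside Hoxd13 to 74701824 between Hoxd9 and Hoxd8. The KO widths were thus both below the WT widths, with a WT mean of 71219 ± 2913 bp and a KO mean of 47793 ± 22091 bp (± SD over 2 mice). The exact permutation p was 0.333 and the adjusted p 0.400. The difference of -23426 bp was -7805 bp without KO_399 and -39047 bp without KO_401.

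The longest KO_399 peak was bordered by short breaks. Toward Evx2 its domain went on in pieces parted by gaps of 199, 257 and 121 bp, and toward Hoxd8 the next gap was 1010 bp. Joining peaks across gaps of up to 1 kb gave stretches of 54651 bp (KO_399), 72683 bp (KO_401), 76002 bp (WT_407) and 116703 bp (WT_409). The KO_399 stretch ended at the gap of 1010 bp, just above the limit for joining. With gaps of up to 3 kb joined, WT_407 reached 113486 bp and WT_409 126981 bp, but KO_399 only 70684 bp and KO_401 72683 bp. Both KO stretches then ended inside Hoxd3 before Hoxd4, at 74715380 and 74717282, while the WT stretches ended at 74755772 and 74769150. WT_407 had a gap at that place too, but it was 1247 bp long, against 10477 bp in KO_399 and 3573 bp in KO_401. In WT_409 the same place was crossed by peaks of 667 and 291 bp with folds of 6.26 and 5.05, near the lowest fold of 5 in the lists.

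The outer borders of the block lay within a few kb of each other in all mice. Followed outwards from the window across gaps of up to 3 kb, peaks began at -25.9 kb (WT_407), -26.1 kb (WT_409), -23.5 kb (KO_399) and -23.6 kb (KO_401) from the start of Hoxd13, beyond Evx2. On the other side they ended at 1.6, 4.0, -0.4 and 1.4 kb from the end of Hoxd1 in the same order. Both borders lay farther in for both KO than for both WT mice. On the Hoxd1 side, however, KO_401 differed from WT_407 by less than the WT mice differed from each other. The outermost WT_409 peak there was 1068 bp long with a fold of 5.78. Between these borders H3K27me3 covered 95.9% and 96.9% of bases in WT_407 and WT_409, 77.9% in KO_399 and 92.1% in KO_401. WT_407 had 6 peaks in the window, WT_409 8, KO_399 16 and KO_401 9 (exact permutation p = 0.333, adjusted p = 0.400). KO exceeded WT by 5.50 peaks, and by 2 without KO_399 and 9 without KO_401. With gaps of up to 1 kb joined the difference was 2 pieces (exact permutation p = 0.667), with WT_407 and KO_401 both at 3.

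A gap in a list need not be a stretch without signal. Peaks are numbered along the genome in the deposited names, and numbers skipped within a gap are taken as calls that were left off the list, where the lowest fold was 5. Between the borders 4 numbers were skipped for WT_407, 1 for WT_409, 15 for KO_399 and 7 for KO_401. The gap of 10477 bp before and within Hoxd4 in KO_399 held 7 of them, and the gap of 5629 bp within Haglr held 3. The WT_407 gap of 3448 bp in Haglr also held 3.

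The position of the summit also differed between lists. In the long peak it lay at -241 bp (WT_407) and -308 bp (WT_409) from the Hoxd10 start site, on the promoter printed above or just before it, with 91 and 93 reads over a background of 3.09 and 3.15. The longest KO_399 peak had its summit at -467 bp from the first Hoxd11 start site, with 49 reads over 3.30, and that of KO_401 at -315 bp from Hoxd13, with 85 reads over 4.19. The authors' folds were 22.5, 22.6, 11.6 and 16.6 for WT_407, WT_409, KO_399 and KO_401, each from a list scaled on its own, so they are not compared between mice. By q-value the peak stood at percentiles 99.9, 99.3, 98.6 and 99.9 of its own list, and by width it ranked 3 in both WT lists and 2 in both KO lists, which are shorter.

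By gene, all 9 members had an H3K27me3 peak over the span in all 4 libraries, against 16.4% of all protein-coding genes. The whole span was covered for 8 of the 9 in each WT mouse, 7 in KO_401 and 4 in KO_399, so the genes differed mostly in KO_399. Hoxd12, Hoxd11, Hoxd10 and Hoxd9, the central posterior genes, were covered over the whole span in all 4 libraries, 4 of 9 members against 0.722% of all genes. Hoxd13, at the posterior end, was covered whole in WT_407, WT_409 and KO_401 and over 94.1% in KO_399, and Hoxd8 likewise, with 93.2% in KO_399. A gene that lies within a longer block can reach no more than its whole span, so full coverage gives no measure of signal height.

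At Hoxd4 and Hoxd3 each KO mouse had fewer bases under the mark than either WT mouse, 2 of 9 members, against 62.9% of the 5455 genes with H3K27me3 in any library. Hoxd4, an anterior gene, was covered over 100% in WT_407 and WT_409, 38.2% in KO_399 and 94.0% in KO_401. Its start site lay under a peak in WT_407, WT_409 and KO_401, and KO_399 had no listed H3K27me3 within 1 kb of it. Hoxd3 was covered over 95.9%, 96.9%, 54.9% and 86.0% in WT_407, WT_409, KO_399 and KO_401, although a peak lay over its own start site in all 4. Hoxd1, the anterior end of the cluster, kept whole coverage in every mouse but KO_399 (82.5%). No member had more in both KO mice (0.0183% of genes did). With 8 of 9 members covered whole in both WT mice, only Hoxd3 could have had more, so this was largely fixed in advance. A peak in both WT mice and neither KO mouse was found for 0 of 9 members (7.64% of genes). Without KO_401 the members with fewer bases in KO numbered 5, and with 2 kb added on each side of the spans 4. The median share of WT length kept in KO was 97.1% over the members and 64.5% over the 4745 genes with the mark in both WT mice. Short spans inside a long block can stay whole while the block loses bases around them. The whole window kept 86.8%, and the stretch from the end of Hoxd8 to the end of Hoxd3 kept 74.5%. Neither these medians nor 2 of 9 against 62.9% is therefore read as a result about the members.

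**Figure D2:**
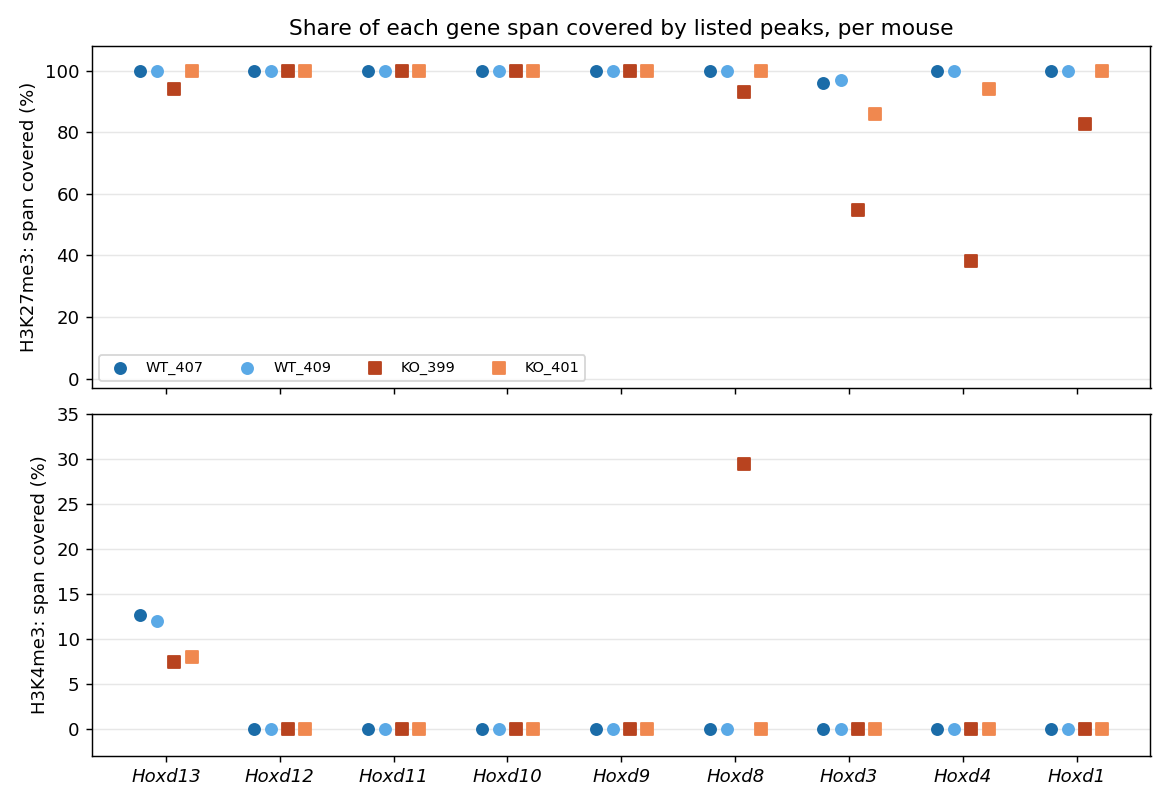
Percent of each member's span covered by H3K27me3 (upper panel) and H3K4me3 (lower panel), with circles for WT and squares for KO mice and genes in chromosomal order. H3K27me3 is at 100% in all mice from Hoxd12 to Hoxd9 and lowest in KO_399 at Hoxd4 (38.2%), and H3K4me3 is present at Hoxd13 in all 4 mice and at Hoxd8 in KO_399.

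The stretch between the posterior genes and Hoxd1 held most of the difference between genotypes. From Hoxd13 to Hoxd8 (39.7 kb) coverage was 100% in WT_407, WT_409 and KO_401 and 96.4% in KO_399. From the end of Hoxd8 to the end of Hoxd3 (40.3 kb) it was 96.0%, 97.2%, 57.2% and 86.9% in WT_407, WT_409, KO_399 and KO_401, which is 65.3% of the bases by which the KO mean fell short in the window. Between Hoxd3 and Hoxd1 (14.7 kb), where the noncoding Haglr lies, it was 76.6%, 88.5%, 61.1% and 70.3%, or 16.3% of the shortfall. These shares rest on both KO mice, of which KO_399 had the larger shortfall in each stretch. In both stretches each KO mouse lay below each WT mouse. The segments follow the gene borders, were chosen with the values known and were not tested.

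H3K4me3 was sparse, and all of it in WT lay on the Evx2 and Hoxd13 side. In the window WT_407 had 2542 bp and WT_409 2111 bp, KO_399 4036 bp and KO_401 2641 bp. The groups did not overlap, but KO_401 exceeded WT_407 by less than the WT mice differed from each other. The WT mean was 2326 ± 305 bp and the KO mean 3338 ± 986 bp (± SD over 2 mice), with an exact permutation p of 0.333 and an adjusted p of 0.400. The KO excess of 1012 bp fell to 314 bp without KO_399 and was 1710 bp without KO_401. With lists cut to equal covered length it was 266 bp, with KO_399 at 2544 bp beside 2542 bp in WT_407. With only peaks of a fold of at least 8, the excess was 426 bp and the groups overlapped (exact permutation p = 1). The number of peaks was 4, 3, 4 and 5 in WT_407, WT_409, KO_399 and KO_401 (exact permutation p = 0.667, adjusted p = 0.667). The groups overlapped, and the KO excess of 1 peak was 1.5 without KO_399.

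Hoxd13 was the member with H3K4me3 over its span in all 4 libraries, 1 of 9, against 60.8% of all genes (0 with a fold of at least 8, 2 with 2 kb added on each side). Its peak covered the start site in every mouse and 426 bp (WT_407), 405 bp (WT_409), 251 bp (KO_399) and 269 bp (KO_401) of the span. The KO values were both lower, as for 4.55% of the 14469 genes with H3K4me3 in any library, to which 2 of the members, Hoxd13 and Hoxd8, belong. Within 1 kb of the start site, however, the groups overlapped, at 671, 474, 516 and 294 bp in the same order. These peaks ranked low by q-value in their lists, at percentiles 16.5 to 23.7. Of these 2 members, 0 had more over the span in both KO mice (22.9% of the 14469 genes), and 0 had a peak in both WT mice alone (0.228%) or in both KO mice alone (0.415%). With only 2 members, nothing is read from these shares. Of all 9 members, 0 were covered over the whole span in all 4 libraries, against 0.978% of the 21887 genes.

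All mice shared another pair of H3K4me3 sites. The first lay in the 3409 bp between Hoxd13 and Hoxd12, with 614 bp (WT_407), 694 bp (WT_409), 1413 bp (KO_399) and 850 bp (KO_401). The KO lengths were both above the WT lengths, but that of KO_401 was the sum of 2 peaks, of 368 and 482 bp. Each of these was shorter than either WT peak, and their folds of 5.12 and 6.21 were near the lowest fold of 5. The second lay inside Evx2, a homeobox gene next to the cluster, with summits at -3852 to -3514 bp by coordinate from its start site (Evx2 runs on the minus strand). With a second peak there in WT_407 and KO_401, H3K4me3 covered 943 to 1497 bp of the span. The start site of Evx2 itself had no listed H3K4me3 within 1 kb in any library.

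Hoxd8 had H3K4me3 in KO_399 alone, as a peak of 976 bp with its summit 578 bp past the start site, 24 reads and a fold of 6.85. Without KO_401 it would count as the 1 member with more H3K4me3 in KO. Hoxd12, Hoxd11, Hoxd10, Hoxd9, Hoxd4, Hoxd3 and Hoxd1 had none in any library. The names skipped 2, 1 and 1 numbers in the 152 kb that follow the last listed Hoxd peak in WT_407, WT_409 and KO_401, so that at most 2 calls were left off there. In KO_399 they skipped 2 in the 31664 bp before the Hoxd8 peak, which hold the start sites from Hoxd12 to Hoxd8. Another 2 were skipped in the 120 kb after that peak. KO_399 had the highest H3K4me3 background of the 4 libraries, 2.65 reads per position against 2.23, 1.94 and 1.93 in WT_407, WT_409 and KO_401. Summed H3K4me3 at stromal and endothelial markers was also highest in it (2332 bp at 3 of 3 markers, against 1583, 861 and 975 bp at 2, 1 and 1 of 3; Lepr was at 0 in the other mice, and Col1a1 and Cdh5 have no start site in the table). At B lymphoid markers it had 3296 bp, against 302, 4334 and 947 bp. The part of these in the Hoxd8 peak was not tested.

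The H3K4me3 of the cluster lay inside H3K27me3 almost throughout. In WT_407, WT_409 and KO_401 100% of it was under an H3K27me3 peak of the same mouse, and in KO_399 94.4%, because the Hoxd8 peak crossed a gap of 226 bp. Bases with both marks numbered 2542, 2111, 3810 and 2641 in WT_407, WT_409, KO_399 and KO_401, a mean of 2326 ± 305 in WT and of 3226 ± 827 in KO (± SD over 2 mice). The exact permutation p was 0.333 and the adjusted p 0.400. In WT_407, WT_409 and KO_401 the bases with both marks are the H3K4me3 bases of the window again. This comparison therefore largely repeats that of H3K4me3 and is not a separate result. The KO excess of 899 bp was 314 bp without KO_399, 1484 bp without KO_401 and 266 bp with lists cut to equal covered length. At a fold of at least 8 it was 426 bp and the groups overlapped (exact permutation p = 1). Most of the block carried H3K27me3 alone: the shared bases were 1.80% to 4.15% of its H3K27me3.

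The genes on either side showed where the block stops. Evx2 was covered by H3K27me3 over its whole span in all mice but KO_399 (98.6%). Lnpk, 68.8 kb below the window, and Mtx2, 40.7 kb above it, had no H3K27me3 over the span in any library and H3K4me3 near a start site in all 4. Within the window the noncoding Haglr was covered over 76.2%, 88.3%, 60.5% and 69.8% in WT_407, WT_409, KO_399 and KO_401. The microRNA gene Mir10b, inside the Hoxd4 span, lay under a peak in all 4, in KO_399 close to the edge of the longest gap.

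Among the list of 14 Hox cofactors and regulators (Pbx, Meis and Pknox partners, Evx and Cdx genes), 9 had H3K27me3 over the span in all 4 libraries (16.4% of all genes). Of the 10 with the mark in any library, 6 had fewer bases in both KO mice, near the 62.9% of all marked genes, and 0 had more. Meis1, a partner of Hox proteins in progenitors, had 12483 bp (WT_407), 12769 bp (WT_409), 8045 bp (KO_399) and 11593 bp (KO_401). Cdx2, an activator of Hox genes, was covered over its whole 6350 bp in all 4. Of these 14 genes 10 had H3K4me3 in all 4 libraries (60.8% of all genes), with more in both KO mice at 2, the Hox partners Pbx2 and Pknox1 (22.9% of marked genes). Of the 30 Hox genes of the other clusters, 27 had H3K27me3 in all 4 libraries (16.4% of all genes). Of the 28 with the mark in any library, 9 had fewer bases in both KO mice (62.9% of marked genes) and 0 had more, with a median of 95.0% kept.

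Set beside the other Hox clusters, with windows drawn the same way, the Hoxd window kept 79.5% of the WT mean in KO_399 and 94.2% in KO_401. The Hoxa window kept 73.8% and 91.2%, Hoxb 69.1% and 83.9%, and Hoxc 76.7% and 92.3%, while all listed H3K27me3 of the genome stood at 45.9% and 70.1%. These values share their libraries and were not tested against each other. KO_399 was the lower mouse in all 4 windows. H3K4me3 covered 1.54% to 2.95% of the Hoxd window, less than of Hoxa (10.2% to 16.7%) and Hoxb (4.80% to 7.73%) and more than of Hoxc (0.311% to 1.20%) in these libraries.

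**Figure D3:**
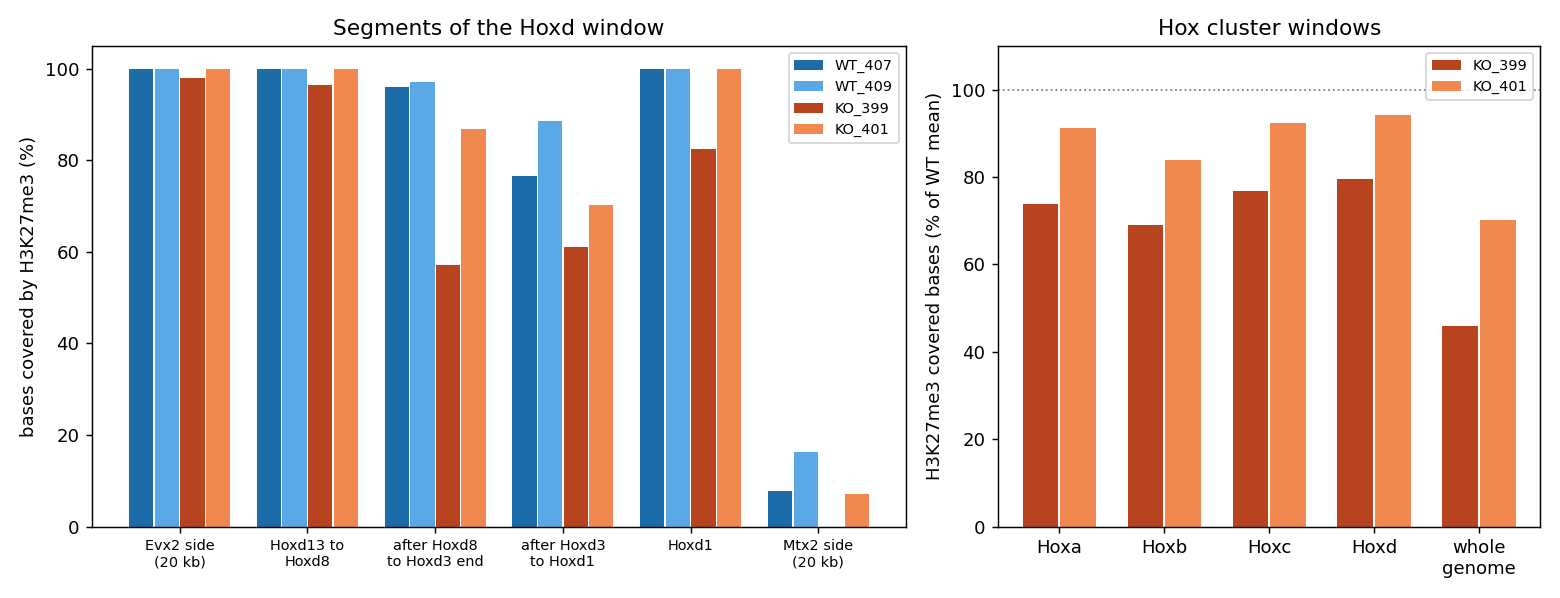
Left, percent of bases under H3K27me3 in each segment of the Hoxd window, with 1 bar per mouse; right, H3K27me3 bases in each KO mouse as percent of the WT mean, for the 4 Hox cluster windows and all listed peaks. The segment from the end of Hoxd8 to the end of Hoxd3 falls to 57.2% in KO_399, and the Hoxd bars stand at 79.5% and 94.2%.

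Among the 54 H3K27me3 domains of at least 20 kb in both WT mice, 51 (94.4%) had lower values in each KO mouse than in either WT mouse. The domains were chosen by their length in WT, and their borders follow the WT peaks. KO values could therefore hardly exceed WT values, and the share of 94.4% was nearly fixed in advance. The cluster gave 2 of the 54 domains, with different shares kept. The block from Evx2 to the start of Hoxd3, at 76010 bp the third longest of the 54, kept 87.3% in KO_399 and 95.7% in KO_401. The block over Hoxd4 and the rest of Hoxd3 (34227 bp) kept 68.1% in KO_399, rank 48 of 54, and 94.2% in KO_401, rank 24. The medians over the 54 were 81.1% and 93.0%. By the same choice both WT mice had a peak of 20 kb or more in all 54, so this count could not be higher in KO. Such a peak was listed in 4 of the 54 domains in KO_399 and in 18 in KO_401. The Evx2 to Hoxd3 block was among them in both, and by the widest peak left it ranked 2 in both KO mice.

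**Figure D4:**
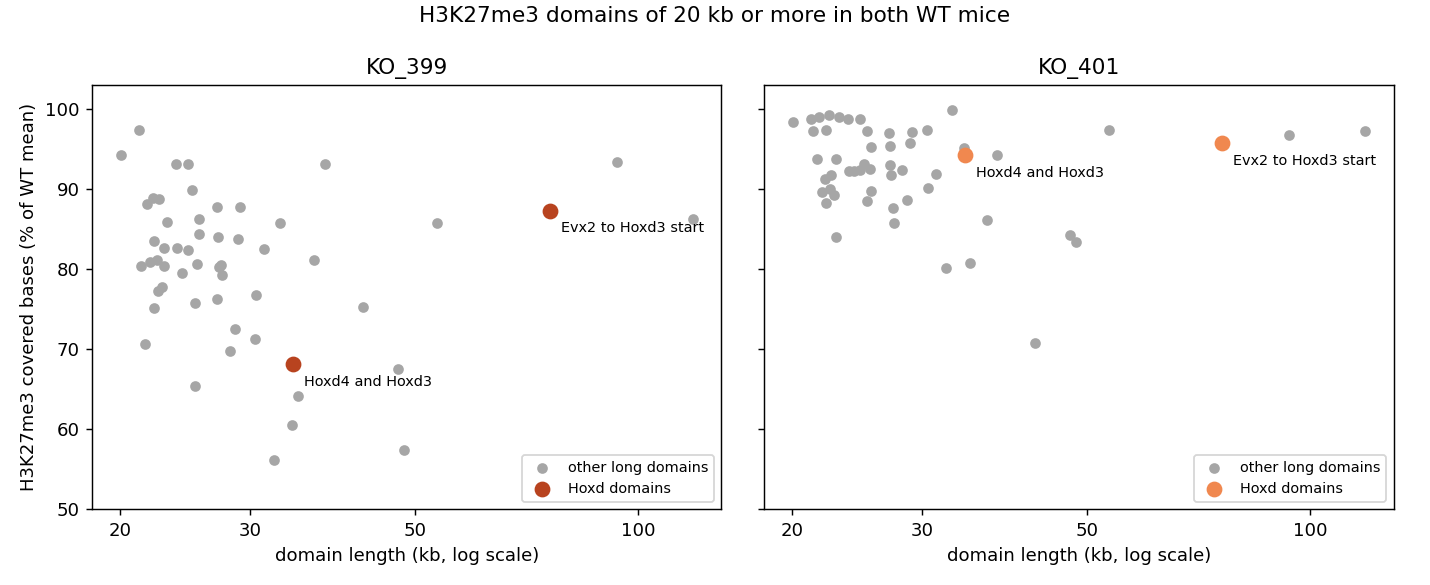
H3K27me3 bases in each KO mouse as percent of the WT mean (y axis) against domain length in kb (x axis, log scale), for the 54 domains of 20 kb or more in both WT mice. Coloured points are the Hoxd domains, at 87.3% and 68.1% in KO_399 and at 95.7% and 94.2% in KO_401.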

How the data were processed

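H3K27me3, H3K4me3 and input were sequenced from 4 mice, and the 4 input libraries were not analysed here. Per the labels, formaldehyde-fixed chromatin was sonicated to 100 to 300 bp and read at 75 bp. The submitters' processing notes name build mm10 and the tools MACS2, Bowtie2, Trim Galore, FastQC, deepTools and SAMtools, without versions. The sources used here do not name the control of the caller. Within the deposited lists the score is a whole number per peak (10 times the −log10 q), and the deposited −log10 values are of p and q. The fold is the ratio of pileup to background at the summit, each with the same small constant added first. These are the authors' values, used only within a list.

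Coverage was counted from peaks of at least 1 bp overlap with Python 3.11.15, pandas 2.3.3, NumPy 2.4.6 and SciPy 1.17.1, and the interval code was tested on simulated data. Summit reads were solved from fold and p as whole numbers, which succeeded for 100% of summits, and are in the caller's scaling. Totals of sequenced reads are unknown, and the H3K27me3 lists hold 24.8% to 36.5% of the numbered calls. Genes and start sites came from RefSeq GRCm38.p6. Named genes were all members, neighbours within the window or the nearest 3 on each side, cofactors, and genes in the 5 widest peaks. The members and lists were chosen with earlier results of these data known. Alternatives were flank, fold, equal lists, joined gaps, gene flanks and each mouse left out.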

Additional observations from a re-analysis of the deposited data

How the results depend on the processing

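Of 86 recomputed values, 78 kept their direction or stayed within 1.5 times the reported count or 1 SD of the reported share. For values whose WT and KO groups did not overlap, leaving 1 mouse out could not reverse the direction, so those were fixed in advance. A kept direction also counts differences that shrank, such as the H3K4me3 excess of 1012 bp, which was 266 bp at equal covered length. The number of members with fewer H3K27me3 bases in both KO mice was 4 instead of 2 with 2 kb or 5 kb added to each side of the spans, and 2 to 5 with 1 mouse left out, the 5 without KO_401. The number with H3K4me3 in all 4 libraries was 2 with 2 kb added, 0 with a fold of at least 8 and 0 with lists cut to equal covered length. The number with more H3K4me3 in both KO mice was 0 to 1 with 1 mouse left out, the 1 being Hoxd8 without KO_401. At a fold of at least 8 the KO excess in H3K4me3 peaks was 0. The cause of these shifts was not tested. With lists cut to an equal number of peaks the Hoxd window kept 89.1% of its H3K27me3 in KO, and with equal covered length 87.0%. With 1 mouse left out the KO shortfall in H3K27me3 ranged from -23663 to -6720 bp. No paired analysis was possible because the WT and KO mice share no number and the marks were not tested against each other. The lowest fold in the lists was 5, so calls below it are not seen in the gaps, and what depth limits could not be measured because read totals are unknown.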

Other observations

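Summits of the H3K27me3 peak at Hoxd1 lay at -37 and -87 bp from the start site in WT_407 and WT_409, and at 551 and 380 bp in KO_399 and KO_401. At Hoxd3 they lay 317, 231 and 263 bp past the start site in WT_407, KO_399 and KO_401, while in WT_409 the long peak covered that site. The widest H3K27me3 peak of both KO lists lay on chromosome 8 with no protein-coding gene of the table (44181 bp in KO_399 and 88324 bp in KO_401), and the Hoxd peak came next in both. In WT_407 a peak over Hoxc10 to Hoxc13 also exceeded the Hoxd peak (69916 bp), and in WT_409 a peak from Hoxc13 to Hoxc4 (98749 bp).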
